A study of Homo sapiens with 15 samples.

Results

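The genes described here encode the subunits of human RNA polymerases I, II and III and a set of general transcription factors. They were taken as every protein-coding gene whose symbol starts with POLR1, POLR2 or POLR3, or with GTF2 or GTF3, followed by a letter. The rule matched 75 of the 31352 genes in the table. Of these, 20 were pseudogenes, antisense or other noncoding genes and were left out, so 55 members remained, 33 polymerase subunits and 22 factors. Of the 55, 54 passed the filter on low counts. POLR2J2, a near-identical copy of POLR2J, had 0 or 1 read in each library and was not tested. GTF2H5, GTF2I, GTF2A1L and GTF2H2C_2 were not analysed here.

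Polyadenylated RNA was sequenced in 15 libraries, 3 in each of 5 groups. One group carried an isogenic empty vector (EV). The other 4 groups expressed, after induction with doxycycline, the intracellular domain of NOTCH1 (NICD1), NOTCH2 (NICD2), NOTCH3 (NICD3) or NOTCH4 (NICD4), the fragment that the activated receptor releases to the nucleus. The labels name the cells HCT116, a colorectal cancer line, whereas the sample descriptions carry the name U373. The dose and duration of doxycycline, and any exposure of EV cells to it, are not stated. Nor is it stated that replicates came from separate cultures, so p-values measure the spread between these libraries, which may be technical. NICD4 replicate 1 is called NICD3 in 2 of its other labels.

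Library totals ran from 11630195 to 27704492 reads. Levels are in CPM, a gene's reads as a part of the library total, with each total scaled by the trimmed mean of M-values (TMM), whose factors were 1.21 to 1.32 in EV and 0.793 to 1.09 elsewhere. Reads of the receptor genes did not separate the groups by their labels. NOTCH1 had 26.9 to 30.2 CPM in NICD1 and 28.4 to 32 in EV, NOTCH2 from 40.2 to 42.8 in NICD2 and 39.8 to 40.5 in NICD4, NOTCH3 from 11.5 to 11.9 in NICD3 and 13 to 15.4 in NICD4, and NOTCH4 1.81 to 2.22 in NICD4 and 1.31 to 2.14 in EV. NOTCH2 in NICD2 and NOTCH3 in NICD3 lay above EV, which had 30.3 to 32.9 and 9.6 to 11.2 CPM of them. The group mean of NOTCH2 was highest in NICD2 (41.8), and that of NOTCH3 was highest in NICD4 (14.1). Below, NICD1 to NICD4 mean the libraries so labelled. HES1, a direct target of NOTCH, lay between 18.9 and 20.1 CPM in EV and between 37.5 and 107.0 in the 12 NICD libraries. The 12 colorectal markers summed to 2093 to 2670 CPM in EV and 9516 to 23210 in the NICD libraries, with KRT8, KRT18 and KRT19 making up most of the sum. CDH17, CDX1, LGALS4, CEACAM5 and VIL1 were near 0, with EV means of 0.0816, 0, 0.183, 0.0151 and 0.933 CPM, and the means of CDH17, LGALS4 and VIL1 were lower in NICD1, NICD2 and NICD3 than in EV. The sums were 40.9 to 77.6 for 9 glial, 8.5 to 20.8 for 8 fibroblast and 6.23 to 13.5 for 5 leukocyte markers. No marker in the table was at 0 in all libraries, and the part of cell make-up in the results below was not tested.

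RNA polymerase I makes the precursor of the large ribosomal RNAs, polymerase II makes messenger RNAs and many small RNAs, and polymerase III makes transfer RNAs, 5S ribosomal RNA and other short transcripts. The enzymes share several small subunits, polymerases I and III share a further pair, and each has its own large subunits that form the catalytic cleft. Polymerase II reaches a start site with TFIIA, TFIIB, TFIID, TFIIE, TFIIF and TFIIH. Polymerase III needs TFIIIC, which binds promoters inside the gene, with TFIIIA added at 5S genes.

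More of the polymerase subunits were called higher than lower against EV in all 4 comparisons. With library totals as the scale, more subunits were called lower than higher in NICD1, NICD3 and NICD4. Their median log2 changes were then −0.07, −0.02 and −0.16 in these groups, above the −0.53, −0.48 and −0.66 of all genes. With TMM, more of the general factors were called lower than higher in all 4 comparisons, and so were more of all genes tested. A gene was called when its adjusted p fell under 0.05 in limma (moderated test, Benjamini-Hochberg over 15122 genes). Of 54 members, 25 were called higher and 17 lower in NICD1, 24 and 11 in NICD2, 26 and 16 in NICD3, and 25 and 18 in NICD4. Among all genes tested, 35.6% were called higher and 39.8% lower in NICD1. The shares were 29.6% and 29.9% in NICD2, 33% and 36.2% in NICD3, and 37.4% and 43.6% in NICD4.

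Of the 32 polymerase subunits tested, 19 were called higher and 7 lower in NICD1, 19 and 5 in NICD2, 20 and 8 in NICD3, and 19 and 7 in NICD4. Their median log2 changes were 0.39, 0.36, 0.40 and 0.38, beside −0.08, −0.03, −0.07 and −0.12 over all genes. Of the 22 general factors, 6, 5, 6 and 6 were called higher and 10, 6, 8 and 11 lower, with median log2 changes of −0.42, −0.18, −0.35 and −0.32. The factors' shares were near those of all genes in NICD2 (22.7% higher and 27.3% lower). In NICD3 their share called lower was also near that of all genes (36.4% beside 36.2%). The difference between subunits and factors was not tested. The 4 comparisons share the EV libraries and are not independent of each other.

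These directions are relative to the scaling. With library totals in place of TMM, the median log2 change of all genes moved to −0.53, −0.31, −0.48 and −0.66 in NICD1 to NICD4. The subunits then had 10 called higher and 13 lower in NICD1, 14 and 9 in NICD2, 10 and 15 in NICD3 and 10 and 15 in NICD4, and their median log2 change turned negative in NICD1 (−0.07), NICD3 (−0.02) and NICD4 (−0.16) and was 0.07 in NICD2. The factors had 1, 3, 2 and 3 called higher and 15, 13, 15 and 14 lower. The shares of all genes called at this scaling are not given here. Without NICD4 replicate 1, 18 subunits were called higher and 8 lower in NICD4, and 6 and 10 factors.

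**Figure D1:**
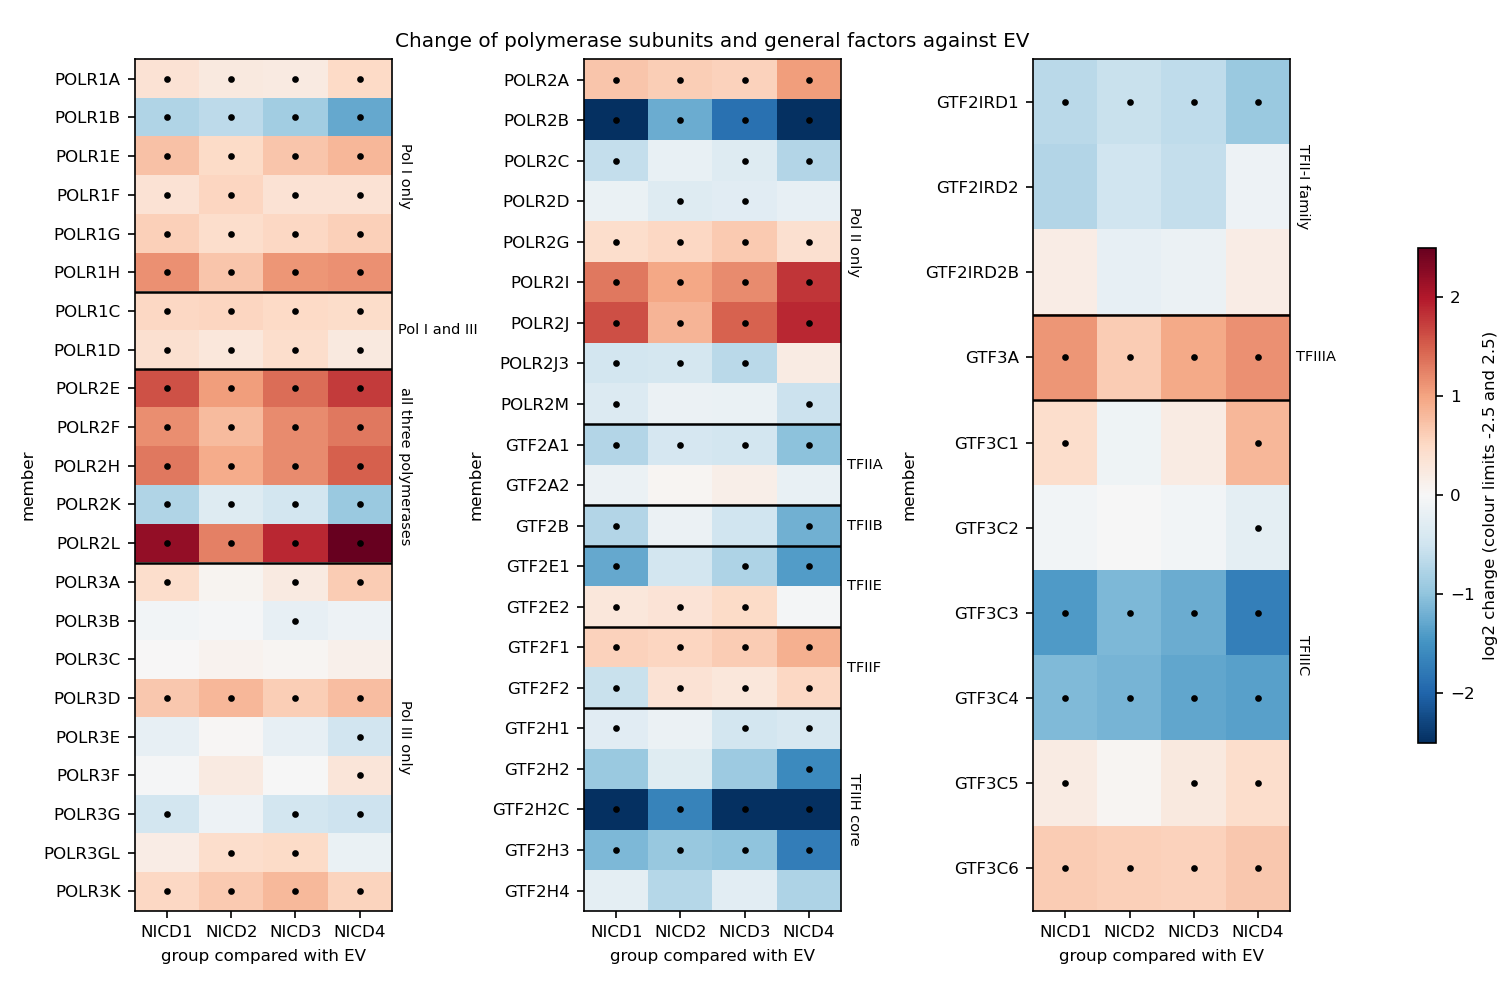
Log2 change against EV of 53 tested members (rows, grouped by complex) in NICD1 to NICD4 (columns), with red for higher, blue for lower and a dot where the adjusted p was under 0.05, and colours that do not deepen past the ends of the colour bar. POLR2L is the darkest red, with log2 changes up to 2.61, and GTF2H2C and POLR2B are the darkest blue, down to −3.62 and −3.55.

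Of the 54 members, 20 were called higher in all 4 comparisons, and 9 were called lower in all 4. The share of all genes called in the same direction in all 4 is not given here. In single comparisons, 59.5% (NICD2) to 80.9% (NICD4) of all genes were called in either direction. The 20 were POLR1A, POLR1E, POLR1F, POLR1G, POLR1H, POLR1C, POLR1D, POLR2E, POLR2F, POLR2H, POLR2L, POLR2A, POLR2G, POLR2I, POLR2J, POLR3D, POLR3K, GTF2F1, GTF3A and GTF3C6. The 9 were POLR1B, POLR2K, POLR2B, GTF2A1, GTF2H2C, GTF2H3, GTF2IRD1, GTF3C3 and GTF3C4. A further 7 were called higher and 12 lower in some comparisons, GTF2F2 was called in both directions, and POLR3C, GTF2A2, GTF2H4, GTF2IRD2 and GTF2IRD2B were not called in any. The group means fell in the order NICD4, NICD1, NICD3, NICD2, EV from lowest to highest in 12 members, and in exactly the opposite order in 8. The share of all genes with these orders is not given here.

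The promoters of the members that moved furthest are shown as the DNA next to the start sites of genes that rose or fell together. RefSeq windows on GRCh38.p14, from 250 bases before to 50 after a start, were at hand for 43 of the 55 members, 10 of which had more than 1 start. Printed are the 120 bases from 150 to 31 before the start, 5′ to 3′ on the gene's strand, for the 3 members with the largest mean rise and the 3 with the largest mean fall among those with a window. Capitals mark matches to the SP1 letters GGGCGG or, in GTF3C3, to TATAAA read on the other strand. The first 3 rose: POLR2L at chr11:842560-842679 (minus strand), POLR2E at chr19:1095406-1095525 (minus strand) and POLR2H at chr3:184361560-184361679 (plus strand, the upstream of its 2 starts). The last 3 fell: GTF2H2C at chr5:69560041-69560160 (plus strand), POLR2B at chr4:56978746-56978865 (plus strand) and GTF3C3 at chr2:196799714-196799833 (minus strand).
POLR2L: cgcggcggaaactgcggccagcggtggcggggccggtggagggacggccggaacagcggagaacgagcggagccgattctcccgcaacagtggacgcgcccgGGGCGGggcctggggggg
POLR2E: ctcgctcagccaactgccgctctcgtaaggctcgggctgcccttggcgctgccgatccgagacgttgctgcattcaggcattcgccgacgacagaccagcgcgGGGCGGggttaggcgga
POLR2H: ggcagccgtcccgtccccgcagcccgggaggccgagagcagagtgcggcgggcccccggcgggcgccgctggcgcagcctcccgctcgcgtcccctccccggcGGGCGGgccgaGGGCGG
GTF2H2C: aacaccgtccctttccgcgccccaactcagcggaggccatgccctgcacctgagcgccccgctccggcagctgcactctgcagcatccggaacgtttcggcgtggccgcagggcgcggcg
POLR2B: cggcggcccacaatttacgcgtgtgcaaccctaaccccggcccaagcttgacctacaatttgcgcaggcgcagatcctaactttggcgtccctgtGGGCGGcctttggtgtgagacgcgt
GTF3C3: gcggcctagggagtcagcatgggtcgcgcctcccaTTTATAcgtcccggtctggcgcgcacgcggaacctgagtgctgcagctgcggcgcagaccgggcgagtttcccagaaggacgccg

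The 3 rising members had 77.5%, 67.5% and 85.8% G and C in the printed bases, and the 3 falling ones 71.7%, 60.8% and 68.3%. Over whole windows the median was 61.3% in the 15 members with a window that were called higher in all 4 comparisons, 64.7% in the 8 called lower in all 4, and 58.7% in all 35116 windows. The ETS letters CCGGAAG, searched like all motifs on both strands, were in the windows of 22 of 43 members (51.2%) and in 10.3% of all windows. They were in 5 of the 15 and 6 of the 8. The SP1 letters were in 27 of 43 members (62.8%) and 45% of all windows, in 9 of the 15 and 6 of the 8. The E-box CACGTG was in 11 members (25.6%, against 7.26% of all windows), the NRF1 letters GCATGCG in 6 (14.0% against 3.91%), the YY1 letters ATGGCGG in 6 (14.0% against 5.55%) and the TATA letters in 3 (7.0% against 11.5%). GTGGGAA, the core that RBPJ, the DNA-binding partner of NOTCH, recognises, was in 2 members (4.7%, against 6.25% of all windows), both among the 15. These matches describe letters in the windows and not binding.

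Among the 5 subunits that all 3 polymerases contain, POLR2E, POLR2F, POLR2H and POLR2L rose and POLR2K fell in every comparison with EV. POLR2L is a small zinc-binding subunit at the base of the enzyme (chromosome 11, 837356 to 842545, GRCh37). Its level was 276, 168 and 195 CPM in EV, 943, 1205 and 768 in NICD1, 565, 389 and 557 in NICD2, 935, 738 and 664 in NICD3, and 1665, 1006 and 1229 in NICD4. Every NICD library lay above every EV library, and NICD4 replicate 1 was the highest of the 15. The log2 changes were 2.2, 1.25, 1.89 and 2.61, each ± 0.23 (SE, n = 3 per group), with limma adjusted p between 1.5e-07 and 0.00034. Of its exon sequence, 22.5% overlaps other genes.

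POLR2E, which forms part of the jaw that grips the DNA ahead of the enzyme, had 253, 202 and 211 CPM in EV and 658, 800 and 576 in NICD1. It had 490, 399 and 486 in NICD2, 665, 559 and 526 in NICD3, and 871, 652 and 729 in NICD4. Its groups did not overlap with EV, and its log2 changes were 1.60, 1.05, 1.39 and 1.75. POLR2H had 164, 125 and 144 CPM in EV, 352, 414 and 316 in NICD1, 295, 240 and 285 in NICD2, 365, 319 and 303 in NICD3, and 497, 351 and 385 in NICD4. Its log2 changes of 1.32, 0.93, 1.19 and 1.5 ran in the same order of groups as those of POLR2L and POLR2E. POLR2F rose from a mean of 115 ± 20 CPM in EV to 257 ± 18, 197 ± 20, 261 ± 12 and 282 ± 4.1 (SD, n = 3 each).

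POLR2K, the smallest of the shared zinc-binding subunits, went the other way. It had 95.1, 101 and 109 CPM in EV, 64.0, 52.7 and 63.7 in NICD1, 78.0, 89.2 and 76.2 in NICD2, 70.2, 74.7 and 77.4 in NICD3, and 48.0, 59.3 and 54.9 in NICD4. No NICD library reached the lowest EV library. The log2 changes were −0.76, −0.33, −0.46 and −0.92, and with the trend on GC content removed they became 0.02, 0.08, 0.19 and 0.10, of which that in NICD3 was called higher. Its transcript has 35.2% G and C, whereas those of the 4 rising shared subunits have 57.0% to 60.1%.

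In polymerase II the large subunits moved apart. POLR2A carries the catalytic centre and the C-terminal repeat tail on which RNA-processing factors assemble (chromosome 17, 7387866 to 7417933, GRCh37). It had 229, 232 and 224 CPM in EV, 369, 396 and 347 in NICD1, 367, 314 and 377 in NICD2, 370, 327 and 320 in NICD3, and 503, 435 and 488 in NICD4. All 12 NICD libraries lay above EV, and the 3 of NICD4 lay above the other 9. The log2 changes were 0.70, 0.62, 0.57 and 1.05, each ± 0.09 (SE), with limma adjusted p between 1.5e-07 and 9.1e-05.

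POLR2B, the second-largest subunit, forms the other wall of the cleft (chromosome 4, 57843888 to 57897334, GRCh37). It had 97.1, 146 and 129 CPM in EV, 25.5, 10.3 and 36.0 in NICD1, 39.9, 79.7 and 43.8 in NICD2, 24.9, 38.0 and 39.4 in NICD3, and 6.23, 18.0 and 10.0 in NICD4. All NICD libraries were below EV, by log2 changes of −2.53, −1.24, −1.87 and −3.55, each ± 0.43 (SE). Spread between replicates was wide, since NICD1 ran from 10.3 to 36.0 and NICD4 from 6.23 to 18.0. The limma adjusted p was 9.3e-05, 0.022, 0.0013 and 2.6e-06. The NICD2 call was lost when EV replicate 2 or 3 or NICD2 replicate 1 or 3 was left out, with log2 changes from −1.20 to −1.05 and limma adjusted p between 0.057 and 0.085.

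Per kilobase of exon, POLR2A stood at 1.12 to 1.67 times POLR2B in the 3 EV libraries. The ratio was 6.8 to 27.2 in NICD1, from 2.79 to 6.51 in NICD2, from 5.73 to 10.5 in NICD3 and 17.1 to 57.0 in NICD4. The ranges of all 4 NICD groups lay above that of EV. In the order of levels per kilobase over the members, POLR2B was at place 18 in EV and 48 in NICD4, while POLR2A moved from place 14 to 11. POLR2L was first in both, with means of 187 and 1138 CPM per kilobase.

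**Figure D2:**
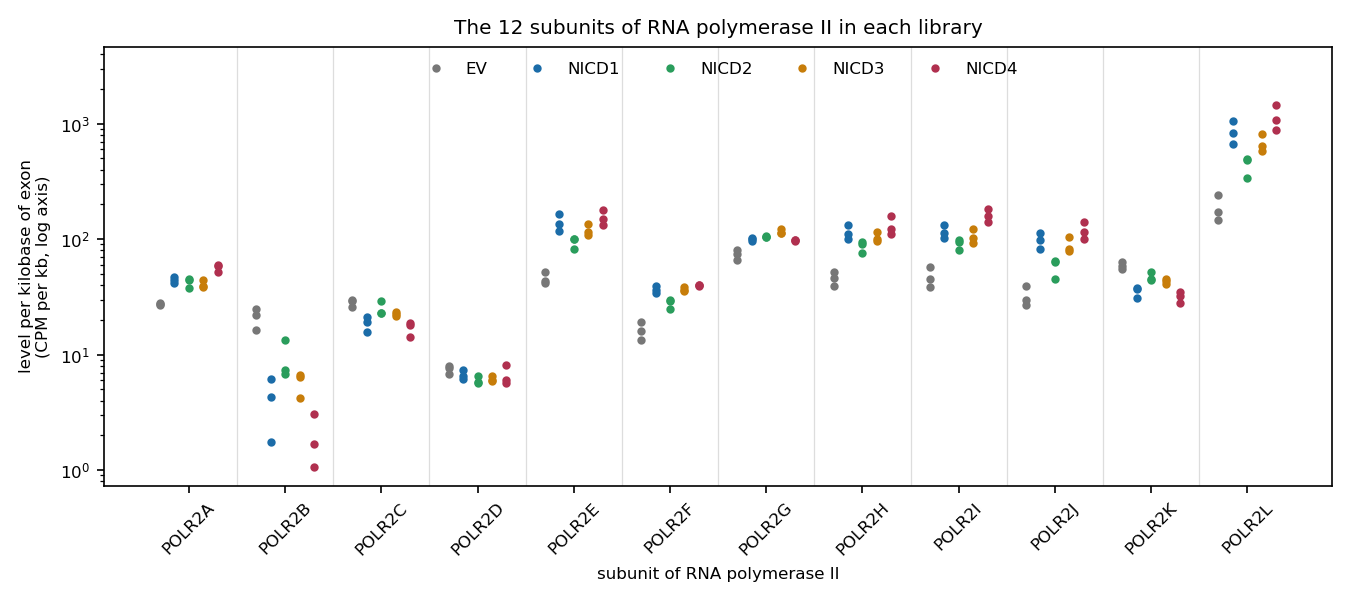
Level per kilobase of exon (CPM per kilobase, log axis) of the 12 subunits of RNA polymerase II in each of the 15 libraries (points, coloured by group). POLR2A and POLR2B lie close together in EV, at means of 27.3 and 21, and far apart in NICD4, at 56.9 and 1.93.

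Of the other polymerase II subunits, POLR2G, POLR2I and POLR2J rose in all 4 comparisons. POLR2J, a small subunit that pairs with POLR2C in the assembly platform of the enzyme, had 53.2, 36.4 and 40.2 CPM in EV, 133, 153 and 111 in NICD1, 87.4, 61.5 and 85.0 in NICD2, 142, 112 and 106 in NICD3, and 189, 136 and 156 in NICD4. Its log2 changes were 1.62, 0.85, 1.48 and 1.89. Its partner POLR2C went from 111 ± 8.5 CPM in EV to 73.6 ± 11, 99.0 ± 15, 88.6 ± 4.2 and 67.4 ± 9.5 (SD, n = 3), and was called lower in NICD1 (−0.60), NICD3 (−0.33) and NICD4 (−0.73) but not in NICD2 (−0.18, limma adjusted p = 0.26). The NICD3 call was lost without EV replicate 2 or 3 or NICD3 replicate 1 or 2. POLR2J has near-identical copies on chromosome 7 between which reads may be split. One of them, POLR2J3, had 5.52 to 6.88 CPM in EV, 4.02 to 5.08 in NICD1, from 4.12 to 4.94 in NICD2, from 3.17 to 4.53 in NICD3 and 6.13 to 8.31 in NICD4. It was called lower in the first 3 NICD groups (−0.45, −0.43 and −0.68), and 76.2% of its exon sequence overlaps other genes.

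POLR2I, a zinc-binding subunit with a role in start site choice and proofreading, had 73.5, 48.9 and 56.9 CPM in EV, 144, 167 and 129 in NICD1, 126, 102 and 119 in NICD2, 157, 129 and 117 in NICD3, and 233, 179 and 200 in NICD4. The log2 changes were 1.31, 0.97, 1.18 and 1.79. Since 79.6% of its exon sequence overlaps other genes and the kit names no strand, its reads may in part belong to them. POLR2G, which with POLR2D forms the stalk near the RNA exit, rose from 142 ± 13 CPM to 190 ± 5.8, 203 ± 3.1, 223 ± 11 and 188 ± 2.8 (SD, n = 3), although with library totals its change was −0.03 in NICD1 and −0.13 in NICD4. Its stalk partner POLR2D had 39.4 ± 3.2 CPM in EV and was called lower in NICD2 (−0.32) and NICD3 (−0.28). Both POLR2D calls were lost without any 1 of several libraries, with limma adjusted p up to 0.11 and 0.14. POLR2M, which blocks the binding of TFIIF to the polymerase, was called lower in NICD1 (−0.35) and NICD4 (−0.54), and its change turned to 0.33 and 0.35 with the GC trend removed.

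In polymerase I the pattern of the large subunits was of the same kind but smaller. POLR1A, the catalytic subunit, had 83.0, 80.6 and 82.9 CPM in EV, 102, 112 and 104 in NICD1, 98.4, 95 and 99.6 in NICD2, 100, 94.1 and 93.0 in NICD3, and 130, 103 and 115 in NICD4. All NICD libraries were above EV, by log2 changes of 0.37, 0.25, 0.22 and 0.49. These were of the size of the scaling shift, and with library totals they were −0.09, −0.03, −0.20 and −0.05. POLR1B, the second-largest subunit, had 52.9, 64.1 and 61.4 CPM in EV, 37.2, 29.2 and 39.7 in NICD1, 33.8, 44.1 and 36.2 in NICD2, 32.3, 33.0 and 32.7 in NICD3, and 20.2, 27.6 and 25.9 in NICD4. It lay below EV in all 12 NICD libraries, and NICD4 was called lower than each other NICD group. With the GC trend removed, the call against NICD3 was lost (−0.21, limma adjusted p = 0.095). The log2 changes from EV were −0.76, −0.65, −0.86 and −1.28, each ± 0.14 (SE). Per kilobase, POLR1A was 0.589 to 0.734 times POLR1B in EV, 1.22 to 1.80 in NICD1, from 1.01 to 1.36 in NICD2, from 1.33 to 1.45 in NICD3 and 1.75 to 3.01 in NICD4.

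The other 4 subunits specific to polymerase I rose in all 4 comparisons. POLR1H, a zinc-binding subunit that takes part in RNA cleavage, had 50.7, 34.4 and 40.7 CPM in EV, 94.1, 97.3 and 85.2 in NICD1, 71.0, 60 and 69.6 in NICD2, 103, 82.0 and 83.2 in NICD3, and 99.2, 86.5 and 89.0 in NICD4. Its groups did not overlap with EV and its log2 changes were 1.15, 0.69, 1.10 and 1.14. POLR1E, of the pair that resembles TFIIF and TFIIE, had 79.8, 68.6 and 77.5 CPM in EV, 119, 144 and 117 in NICD1, 107, 101 and 107 in NICD2, 136, 112 and 119 in NICD3, and 150, 121 and 132 in NICD4. Its log2 changes were 0.74, 0.48, 0.70 and 0.83. Its partner POLR1G rose by 0.60, 0.44, 0.52 and 0.60 on the log2 scale, with 45.1% of its exon sequence shared with other genes. POLR1F, a stalk subunit, rose by 0.37, 0.53, 0.36 and 0.36, and with library totals changed by −0.09, −0.06 and −0.19 in NICD1, NICD3 and NICD4. With the GC trend removed it rose by 1.06, 0.88, 0.93 and 1.26 in NICD1 to NICD4.

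The pair shared by polymerases I and III is the assembly platform of both enzymes. POLR1C had 108, 96.6 and 101 CPM in EV, 148, 140 and 147 in NICD1, 146, 148 and 147 in NICD2, 146, 143 and 145 in NICD3, and 138, 141 and 141 in NICD4. Its NICD libraries formed a narrow band above EV, with log2 changes of 0.51, 0.53, 0.50 and 0.45. With library totals the change in NICD4 was −0.09. POLR1D had 177, 138 and 162 CPM in EV, 207, 207 and 217 in NICD1, 205, 176 and 200 in NICD2, 226, 205 and 211 in NICD3, and 174, 198 and 188 in NICD4. It rose by 0.41, 0.28, 0.43 and 0.24 on the log2 scale, and NICD2 and NICD4 each overlapped EV by 1 library. Its NICD2 call was lost without EV replicate 2 or NICD2 replicate 1 or 3, and its NICD4 call without EV replicate 2 or 3 or NICD4 replicate 2 or 3 (limma adjusted p up to 0.11 and 0.19). Neither member of this pair passed the F-test for a difference among the NICD groups.

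**Figure D3:**
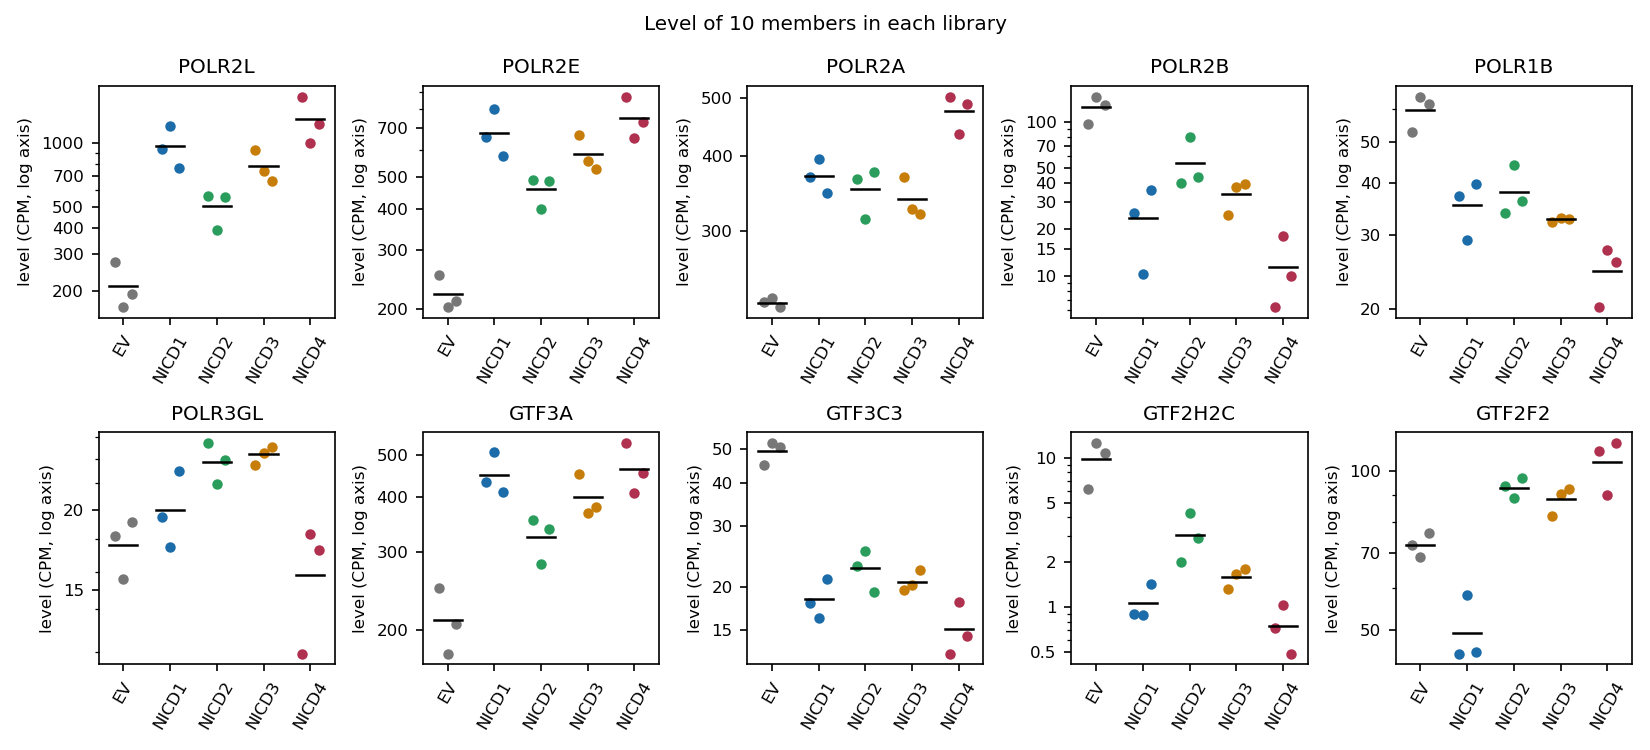
Level (CPM, log axis, range set for each gene) of 10 members in the 15 libraries, with 1 point per library and a line at the mean of each group of 3. POLR2L, POLR2E, POLR2A and GTF3A lie above EV in every NICD library, POLR2B, POLR1B, GTF3C3 and GTF2H2C below it, and GTF2F2 lies below EV in NICD1 and above it in the other 3 groups.

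Polymerase III subunits were mixed. Of the 10 specific to the enzyme, 4 were called higher and 1 lower in NICD1, 4 and 0 in NICD2, 5 and 2 in NICD3, and 4 and 2 in NICD4. The 40% called higher in NICD1 and NICD4 lay near the 35.6% and 37.4% of all genes. In NICD2 and NICD3, 40% and 50% were called higher, beside 29.6% and 33% of all genes. The shares called lower were 10%, 0%, 20% and 20% in NICD1 to NICD4, under the 39.8%, 29.9%, 36.2% and 43.6% of all genes. POLR3D, part of the pair that resembles TFIIF, had 42.9, 37.0 and 36.9 CPM in EV, 59.8, 61.9 and 65.5 in NICD1, 68.7, 73.4 and 65.8 in NICD2, 59.9, 57.8 and 59.9 in NICD3, and 72.0, 64.0 and 62.4 in NICD4. The log2 changes were 0.68, 0.83, 0.61 and 0.77, and they were 0.70, 0.82, 0.61 and 0.84 with the GC trend removed. POLR3E, its partner, was called lower in NICD4 (−0.48) and in no other group. POLR3K, the zinc-binding subunit for termination and RNA cleavage, had 44.5, 35.6 and 43.4 CPM in EV, 63.8, 55.4 and 57.8 in NICD1, 66.6, 65.4 and 61.6 in NICD2, 72.7, 70.3 and 74.2 in NICD3, and 52.4, 65.6 and 62.8 in NICD4. It was above EV in all 12 NICD libraries, with log2 changes of 0.52, 0.65, 0.82 and 0.55.

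Of the large subunits, POLR3A had 50, 50.4 and 49.7 CPM in EV, 66.9, 72.4 and 62.9 in NICD1, 50.8, 51.4 and 56.0 in NICD2, 60.6, 55.7 and 59.8 in NICD3, and 86.1, 69.6 and 77.4 in NICD4. It was called higher in NICD1 (0.43), NICD3 (0.23) and NICD4 (0.63) and not in NICD2 (0.07, limma adjusted p = 0.47). With library totals it changed by −0.03 in NICD1 and −0.19 in NICD3. The NICD3 call was also lost without EV replicate 3 or NICD3 replicate 1 or 3. POLR3B, its counterpart, had 16.4, 17.2 and 18.3 CPM in EV, 17.0, 15.6 and 17.3 in NICD1, 16.7, 17.8 and 16.2 in NICD2, 15.9, 14.5 and 14.6 in NICD3, and 15.9, 15.6 and 15.9 in NICD4. Only the NICD3 change of −0.21 was called, and it was 0.07 with the GC trend removed and 0.01 with the length trend removed. With the GC trend removed POLR3B was called higher in NICD1 (0.29) and NICD4 (0.38). The ratio of POLR3A to POLR3B per kilobase was 1.48 to 1.66 in EV, 1.98 to 2.54 in NICD1, from 1.57 to 1.88 in NICD2, from 2.08 to 2.23 in NICD3 and 2.42 to 2.95 in NICD4.

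POLR3G and POLR3GL are paralogs that take the same place in the enzyme, POLR3G mostly in stem and tumour cells and POLR3GL more widely. POLR3G had 42.4, 39.9 and 41.2 CPM in EV, 31.3, 27.3 and 32 in NICD1, 38.5, 36.5 and 38.3 in NICD2, 26.4, 31.7 and 31.8 in NICD3, and 26.0, 31.6 and 28.8 in NICD4. It was called lower in NICD1 (−0.45), NICD3 (−0.46) and NICD4 (−0.52), and these changes turned to 0.36, 0.22 and 0.53 with the GC trend removed. POLR3GL had 18.2, 15.6 and 19.1 CPM in EV, 19.5, 17.5 and 23 in NICD1, 25.4, 21.9 and 23.9 in NICD2, 23.5, 24.5 and 25 in NICD3, and 11.9, 18.3 and 17.3 in NICD4. It was called higher in NICD2 (0.43) and NICD3 (0.47), and both calls were lost without EV replicate 2, the former also without NICD2 replicate 1 or 3. With the length trend removed its NICD3 change was −0.07. Per kilobase, POLR3G was 0.967 to 1.14 times POLR3GL in EV, 0.623 to 0.717 in NICD1, from 0.677 to 0.747 in NICD2, from 0.501 to 0.578 in NICD3 and 0.744 to 0.977 in NICD4. POLR3C, which helps to open the promoter, was not called in any comparison, with means between 47.2 and 52.0 CPM. POLR3F was called higher in NICD4 (0.30), and this change turned to −0.24 with library totals. With the GC trend removed POLR3F was called higher in all 4 comparisons (0.45, 0.46, 0.38 and 0.97).

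Among the factors that bring polymerase II to its start sites, the TFIIH members that were called were all lower. TFIIH opens the promoter DNA and also serves in nucleotide excision repair. Of its 5 core members tested, 3, 2, 3 and 4 were called lower in NICD1 to NICD4, and none higher. The shares called lower were 60%, 40%, 60% and 80%, beside 39.8%, 29.9%, 36.2% and 43.6% of all genes. Of all genes, 35.6%, 29.6%, 33% and 37.4% were called higher. GTF2H3 had 20.3, 31.6 and 25.9 CPM in EV, 11.7, 9.35 and 14.4 in NICD1, 11.1, 17.1 and 12.2 in NICD2, 11.6, 13.4 and 13.1 in NICD3, and 6.05, 8.74 and 8.65 in NICD4. No NICD library reached EV, and the log2 changes were −1.13, −0.94, −1.01 and −1.72, each ± 0.20 (SE).

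GTF2H2C had 6.16, 12.6 and 10.8 CPM in EV, 0.893, 0.887 and 1.42 in NICD1, 2.00, 4.28 and 2.91 in NICD2, 1.32, 1.68 and 1.81 in NICD3, and 0.723, 1.04 and 0.486 in NICD4. Its log2 changes of −3.11, −1.67, −2.53 and −3.62 were the largest falls among the members in all 4 comparisons. They rest on as few as 5 reads in a library. GTF2H2, its near-identical copy on chromosome 5, had 0.951, 1.33 and 2.03 CPM in EV, 0.756, 0.478 and 0.929 in NICD1, 1.13, 1.17 and 0.986 in NICD2, 0.441, 0.906 and 0.884 in NICD3, and 0.181, 0.652 and 0.583 in NICD4, and was called lower in NICD4 (−1.59). Counting may split reads between these copies, so the level of each is uncertain. GTF2H1, the scaffold subunit, was called lower in NICD1 (−0.28), NICD3 (−0.45) and NICD4 (−0.40), and turned to 0.31, 0.04 and 0.40 with the GC trend removed. GTF2H4 had 5 to 40 reads in a library, 79.0% exon overlap with other genes and no call.

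TFIIF joins polymerase II before the promoter and has 2 subunits, which did not move together. GTF2F1 had 185, 167 and 170 CPM in EV, 254, 283 and 240 in NICD1, 255, 242 and 254 in NICD2, 293, 256 and 257 in NICD3, and 370, 282 and 312 in NICD4. It rose in all 4 comparisons by log2 changes of 0.57, 0.53, 0.63 and 0.88. These were, with the GC trend removed, 0.10, 0.28, 0.24 and 0.23, and that in NICD1 was not called (limma adjusted p = 0.16). GTF2F2 (chromosome 13, 45694650 to 45858237, GRCh37) had 72.4, 68.9 and 76.3 CPM in EV, 45.1, 58.2 and 45.4 in NICD1, 93.7, 88.8 and 96.9 in NICD2, 82.4, 90.6 and 92.3 in NICD3, and 109, 90.0 and 113 in NICD4. NICD1 lay below EV in all 3 libraries and the other 9 NICD libraries lay above it.

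Against EV, GTF2F2 changed by −0.56 in NICD1 and by 0.36, 0.29 and 0.52 in NICD2, NICD3 and NICD4, each ± 0.11 (SE). It had the smallest p of all members in the F-test over the NICD groups (limma adjusted p = 9.9e-06). NICD2, NICD3 and NICD4 exceeded NICD1 by 0.92, 0.84 and 1.07 on the log2 scale (limma adjusted p = 3.1e-05, 0.00015 and 9.5e-06). The direction against EV depended on the processing: it was 0.07 in NICD1 with the GC trend removed, and −0.13 in NICD3 and −0.03 in NICD4 with library totals. The NICD3 call was lost without EV replicate 1 or 2 or NICD3 replicate 2 or 3. Per kilobase, GTF2F1 was 2.57 to 2.95 times GTF2F2 in EV, 5.62 to 6.51 in NICD1, from 3.02 to 3.15 in NICD2, from 3.21 to 4.11 in NICD3 and 3.18 to 3.92 in NICD4, so the NICD1 range lay above those of the other 4 groups.

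TFIIE recruits TFIIH. GTF2E1, its large subunit, had 14.1, 19.1 and 16.1 CPM in EV, 7.69, 5.18 and 7.59 in NICD1, 11.3, 14.1 and 10.4 in NICD2, 8.31, 9.29 and 11.1 in NICD3, and 5.15, 7.95 and 5.74 in NICD4. It was called lower in NICD1 (−1.27), NICD3 (−0.78) and NICD4 (−1.39), and in NICD2 the change of −0.46 was not called (limma adjusted p = 0.052). GTF2E2, the small subunit, had 73.1, 61.8 and 68.3 CPM in EV, 85.5, 73.8 and 87.9 in NICD1, 89.5, 82.9 and 85.5 in NICD2, 92.8, 96.4 and 92.9 in NICD3, and 59.6, 75.7 and 63.5 in NICD4. It was called higher in NICD1 (0.28), NICD2 (0.35) and NICD3 (0.48), and in NICD1 turned to −0.04 with the length trend removed and −0.18 with library totals. NICD4 was lower than each other NICD group, by −0.32, −0.38 and −0.51 against NICD1, NICD2 and NICD3. With the GC trend removed these were −0.21, −0.19 and −0.37, and only that against NICD3 was called.

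GTF2B is the single subunit of TFIIB, which links the polymerase to the promoter. It had 33.9, 35.6 and 40.2 CPM in EV, 23.3, 17.9 and 25.1 in NICD1, 31.6, 35.1 and 31.9 in NICD2, 22, 26.6 and 29.3 in NICD3, and 9.76, 21.8 and 18.5 in NICD4. It was called lower in NICD1 (−0.74) and NICD4 (−1.20), where the 3 libraries ranged from 9.76 to 21.8. Its change with the GC trend removed was −0.27 in NICD1, no longer called (limma adjusted p = 0.15), and −0.56 in NICD4. GTF2A1, the large subunit of TFIIA, had 33.1, 30.5 and 30.5 CPM in EV, 20.4, 15.2 and 21.7 in NICD1, 24.2, 23.3 and 22.8 in NICD2, 19.6, 24.7 and 24.8 in NICD3, and 12.4, 19 and 15.1 in NICD4. It was called lower in all 4 comparisons (−0.73, −0.42, −0.45 and −1.03). With the GC trend removed it changed by 0.04, −0.02, 0.19 and −0.03. Its NICD2 call was lost without any 1 of the 6 libraries compared, with limma adjusted p between 0.053 and 0.081. GTF2A2, the small subunit, was not called. In the TFII-I family, GTF2IRD1, a relative of the TFII-I factor deleted together with it in Williams syndrome, had 33.4, 35.3 and 34.6 CPM in EV, 23.8, 16.6 and 25 in NICD1, 22.2, 24.2 and 24.3 in NICD2, 21.3, 23.5 and 21.3 in NICD3, and 15.5, 21.4 and 18.0 in NICD4. It fell by log2 changes of −0.68, −0.55, −0.64 and −0.92. GTF2IRD2 and GTF2IRD2B, near-identical copies with 4 to 50 reads in a library, were not called.

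In the polymerase III factors, GTF3A rose in all 4 comparisons, and GTF3C3 and GTF3C4 fell in all 4. GTF3A, which is TFIIIA and binds the 5S gene and its RNA, had 249, 176 and 206 CPM in EV, 434, 507 and 412 in NICD1, 355, 282 and 339 in NICD2, 453, 368 and 381 in NICD3, and 532, 409 and 455 in NICD4. All NICD libraries lay above EV, with log2 changes of 1.11, 0.64, 0.94 and 1.15. These grew to 1.29, 0.71, 1.07 and 1.45 with the GC trend removed.

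TFIIIC subunits went in both directions, with 3, 1, 2 and 3 of 6 called higher and 2, 2, 2 and 3 lower in NICD1 to NICD4. The shares called higher were 50%, 16.7%, 33.3% and 50%, beside 35.6%, 29.6%, 33% and 37.4% of all genes. Those called lower were 33.3%, 33.3%, 33.3% and 50%, beside 39.8%, 29.9%, 36.2% and 43.6%. GTF3C4, which has acetyltransferase activity, had 82.3, 84.9 and 87.9 CPM in EV, 39.8, 39.1 and 38.8 in NICD1, 36.0, 38.6 and 38.4 in NICD2, 36.0, 32.4 and 35.3 in NICD3, and 31.8, 33.7 and 33.7 in NICD4. It was the member with the smallest adjusted p against EV in all 4 comparisons, since its replicates were close: the log2 changes were −1.11, −1.17, −1.30 and −1.36, each ± 0.07 (SE), with limma adjusted p between 5.9e-10 and 4.3e-09. GTF3C3 had 44.9, 52.0 and 50.7 CPM in EV, 18.0, 16.2 and 21.1 in NICD1, 23, 25.4 and 19.3 in NICD2, 19.6, 20.3 and 22.3 in NICD3, and 12.8, 18.1 and 14.4 in NICD4. Its log2 changes were −1.42, −1.13, −1.24 and −1.71, and with the GC trend removed they were −0.82, −0.82, −0.75 and −0.91.

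GTF3C1, the largest TFIIIC subunit, which contacts the B box of transfer RNA genes, had 117, 118 and 111 CPM in EV, 152, 182 and 138 in NICD1, 116, 94 and 112 in NICD2, 151, 128 and 124 in NICD3, and 240, 173 and 208 in NICD4. It was called higher in NICD1 (0.44) and NICD4 (0.83) and differed among the NICD groups (limma F-test adjusted p = 0.00029). With library totals its NICD1 change was −0.02. With the GC trend removed it was 0.07 in NICD1, not called (limma adjusted p = 0.54), and 0.33 in NICD4, and NICD2 was called lower (−0.31, limma adjusted p = 0.0091). GTF3C6 rose in all 4 comparisons (0.64, 0.59, 0.58 and 0.68), and with the length trend removed it changed by −0.04 in NICD1 and −0.03 in NICD3. GTF3C5 was called higher in NICD1 (0.20), NICD3 (0.25) and NICD4 (0.43), and turned to −0.31, −0.16 and −0.27 with the GC trend removed and to −0.26, −0.17 and −0.12 with library totals. GTF3C2 was called lower in NICD4 only (−0.24), a call lost without EV replicate 2 or NICD4 replicate 1 or 3.

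Of the 159 calls against EV made for the 53 members described singly, 135 held in every fit that left out 1 library and 24 did not. Beside those already given, the POLR1A call in NICD2 was lost without NICD2 replicate 3, and that in NICD3 without EV replicate 2 or 3 or NICD3 replicate 1. POLR2K in NICD2 was lost without EV replicate 3 or NICD2 replicate 3, and GTF2A1 in NICD3 without EV replicate 1 or NICD3 replicate 1. POLR2J3 was lost in NICD1 without EV replicate 1 or NICD1 replicate 2, and in NICD2 without EV replicate 1 or 3 or NICD2 replicate 2 or 3. POLR3B in NICD3 was lost without replicate 2 or 3 of either group, and POLR3F in NICD4 without EV replicate 2 or NICD4 replicate 1. GTF2E2 in NICD1 was lost without EV replicate 2 or NICD1 replicate 1 or 3. GTF3C5 in NICD3 was lost without EV replicate 2 or 3 or NICD3 replicate 1. The NICD1 calls of GTF3C5 and POLR2M were each lost in 11 of the 15 fits, and the POLR2D call in NICD3 in 8.

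In the comparisons among the NICD groups, the EV libraries enter only the estimate of the spread. Of 54 members, 37 (68.5%) were called between NICD4 and NICD2, beside 63.5% of all genes, and 24 (44.4%) between NICD4 and NICD3, beside 49%. Between NICD2 and NICD1 16 (29.6%) were called, beside 37.2%, and between NICD4 and NICD1 11 (20.4%), beside 27.2%. Between NICD3 and NICD2 5 (9.26%) were called, beside 15%, and between NICD3 and NICD1 1 (1.85%), GTF2F2, beside 6.72%. The F-test over the 4 groups called 36 members (66.7%), beside 67.9% of all genes. With only the libraries of the 2 groups in the fit, 1 member was called between NICD4 and NICD1. Without NICD4 replicate 1, the counts were 30 for NICD4 against NICD2, 12 against NICD3 and 3 against NICD1, and NICD3 against NICD1 had 4.

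Where NICD4 and NICD2 were furthest apart, POLR2B was lower in NICD4 by a log2 change of −2.31, GTF2H2C by −1.95, GTF2H2 by −1.28 and GTF2B by −1.05. POLR2L was higher in NICD4 by 1.36, POLR2J by 1.04 and GTF3C1 by 0.94. With the GC trend removed, POLR2B, GTF2H2C, GTF2H2 and GTF2B changed by −1.89, −1.47, −0.79 and −0.64, and GTF2H2 was not called (limma adjusted p = 0.072). POLR2L, POLR2J and GTF3C1 then changed by 0.88, 0.79 and 0.64. After GTF2F2 and GTF3C1, the smallest F-test adjusted p in limma were 0.00044 for POLR3A, 0.00072 for POLR2K and 0.0011 for GTF2H2C. Of the 5 shared subunits, all 5 passed the F-test, and POLR2K was lowest in NICD4 while POLR2L, POLR2E, POLR2H and POLR2F were highest there. With the GC trend removed, POLR2L and POLR2E still passed it (limma F-test adjusted p = 0.0018 and 0.032). POLR2F, POLR2H and POLR2K did not (0.06, 0.54 and 0.12).

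The changes moved with the composition of the transcripts. Over the 54 members, the correlation of the log2 change with the GC content of the longest transcript was 0.61, 0.47, 0.56 and 0.61 in NICD1 to NICD4, and with log length −0.35, −0.43, −0.44 and −0.33. These are descriptions over genes measured in the same libraries. Over all genes, the median log2 change was −0.67 in the fifth with the lowest GC content (up to 41.5%) and 0.70 in the fifth with the highest (from 58.7%) in NICD1, −0.34 and 0.37 in NICD2, −0.54 and 0.55 in NICD3, and −0.87 and 0.98 in NICD4. The 24 members at or over the median GC content of 49.4% had 18, 15, 17 and 17 called higher and 3, 2, 3 and 4 lower. The 30 members under it had 7, 9, 9 and 8 called higher and 14, 9, 13 and 14 lower.

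**Figure D4:**
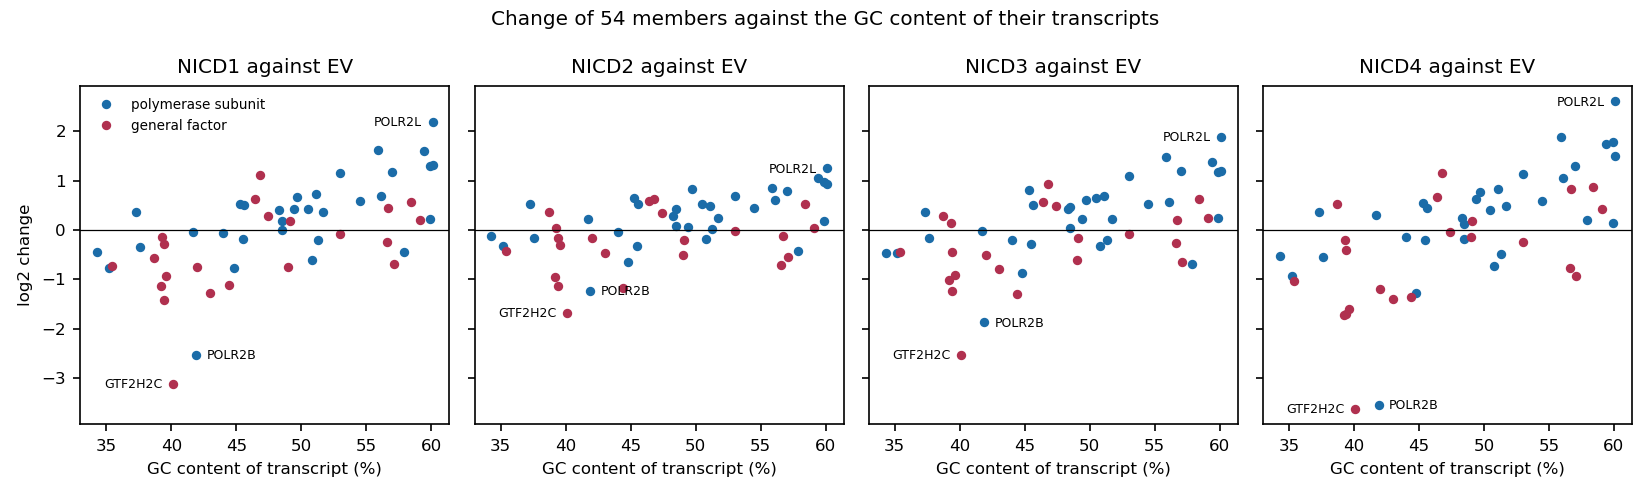
Log2 change against EV of the 54 tested members (vertical axis) by the GC content of their longest transcript in percent (horizontal axis), 1 panel per NICD group, with subunits in blue and factors in red. Members with more G and C lie higher in each panel, with POLR2L at 60.1% at the top and POLR2B at 41.9% and GTF2H2C at 40.1% at the bottom.

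The same tilt was present between replicates. It was measured in each library as the median deviation, from the mean of all libraries, of the genes in the highest of 5 equal classes of GC content minus that of the genes in the lowest, on the log2 scale. It was −1.10 to −0.83 in EV, 0.16 to 0.62 in NICD1, from −0.52 to −0.16 in NICD2, from −0.04 to 0.31 in NICD3 and 0.50 to 1.24 in NICD4, with NICD4 replicate 1 the highest. The lowest and the highest tilt of a group both rose in the order EV, NICD2, NICD3, NICD1, NICD4. That was also the order of the group means in 8 members, and the reverse of it in 12. In each of the 5 groups, the library highest in POLR2L was the lowest in POLR2B, and in 4 of the 5 it had the highest tilt of its group. Of the 42, 35, 42 and 43 members called against EV in NICD1 to NICD4, 37, 29, 36 and 41 changed with the same sign as their slope on the tilt within groups. The same share over all called genes is not given here, and the part of the tilt in these calls was not tested.

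With the GC trend of each library removed, 22 of 32 subunits were called higher and 5 lower in NICD1, 20 and 3 in NICD2, 22 and 5 in NICD3, and 22 and 6 in NICD4. The 22 factors had 5, 6, 6 and 8 called higher and 8, 8, 7 and 10 lower. The shares of all genes called in this fit are not given here, so these counts have no background beside them. The medians stayed on either side of 0, at 0.38, 0.37, 0.39 and 0.47 for subunits and −0.25, −0.16, −0.14 and −0.15 for factors. Over all genes they were −0.03, −0.01, −0.02 and −0.02. The correlation with GC content left among the members was 0.21, 0.14, 0.17 and 0.17. Of the 159 calls of the 53 members described singly, 19 turned, 9 were lost without turning and 131 were kept, of which 30 were over 1.5 times smaller on the log2 scale and 19 over 1.5 times larger. A further 18 changes of these members, not called before, were called after the removal. The 9 were POLR1A in NICD3 (0.13), POLR2D in NICD2 (−0.20) and NICD3 (−0.09), GTF2A1 in NICD2 and NICD4, GTF2B, GTF2F1 and GTF3C1 in NICD1, and GTF2H2 in NICD4 (−0.80, limma adjusted p = 0.052). The 30 smaller ones were changes of POLR1B, POLR1G, POLR2E, POLR2F, POLR2H, POLR2A, POLR2I, GTF2B, GTF2E1, GTF2F1, GTF2H3, GTF3C1, GTF3C3 and GTF3C4. Among the 19 larger ones were changes of POLR1F and GTF2F2.

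The large subunits show the range. POLR2A went from 0.70, 0.62, 0.57 and 1.05 to 0.36, 0.44, 0.28 and 0.60, and POLR1B in NICD4 from −1.28 to −0.83. POLR2B changed by −2.06, −1.0, −1.49 and −2.89 after the removal, and POLR2L by 1.63, 0.96, 1.43 and 1.83. In NICD4, POLR2H went from 1.5 to 0.73, POLR2I from 1.79 to 1.02, POLR2E from 1.75 to 1.03, GTF2H3 from −1.72 to −0.91 and GTF2E1 from −1.39 to −0.81. These were all still called.

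Genes that work with the members were counted from lists of known complexes. Of all genes tested, 35.6%, 29.6%, 33% and 37.4% were called higher in NICD1 to NICD4, and 39.8%, 29.9%, 36.2% and 43.6% lower. Of 15 TFIID genes, which set the promoter platform for polymerase II, 2, 1, 1 and 2 were called higher and 11, 6, 9 and 12 lower. These were 13.3%, 6.67%, 6.67% and 13.3% higher and 73.3%, 40%, 60% and 80% lower. The largest changes were falls of TAF2 (−2.09, −1.34, −1.74 and −2.56), TAF6 and TAF4B. Of the 5 other TFIIH genes, 1, 0, 1 and 1 (20%, 0%, 20% and 20%) were called higher and 4, 2, 2 and 4 (80%, 40%, 40% and 80%) lower. The helicases differed: ERCC3 changed by −0.81, −0.47, −0.53 and −1.10, and ERCC2 by 1.07, 0.26, 0.82 and 1.26 (not called in NICD2). Of 7 polymerase I factors none was called higher and 4, 4, 4 and 5 (57.1%, 57.1%, 57.1% and 71.4%) were called lower, with TAF1A of the SL1 complex at −1.93, −1.13, −1.26 and −2.40. Of 12 polymerase III factors, 4, 2, 3 and 4 (33.3%, 16.7%, 25% and 33.3%) were called higher and 7, 3, 4 and 7 (58.3%, 25%, 33.3% and 58.3%) lower. The shares called lower in NICD2 and NICD3, and those called higher in NICD1 and NICD4, lay near those of all genes. BDP1 of TFIIIB changed by −1.23, −0.68, −1.36 and −1.74. With the GC trend removed, ERCC2 changed by 0.50, −0.04, 0.37 and 0.49, and ERCC3 by −0.81, −0.49, −0.55 and −1.06. TAF2 then changed by −1.51, −1.05, −1.27 and −1.78, TAF1A by −1.48, −0.91, −0.90 and −1.78, and BDP1 by −0.62, −0.36, −0.86 and −0.92.

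The coactivator Mediator had 13, 11, 11 and 10 of 32 genes called higher and 13, 2, 12 and 16 lower. In NICD1 these were 40.6% and 40.6%, near the 35.6% and 39.8% of all genes. In NICD2 they were 34.4% and 6.25%, beside 29.6% and 29.9% of all genes, so few were called lower there. Of 22 elongation genes 7, 7, 7 and 9 were called higher and 9, 4, 9 and 10 lower. In NICD1 this was 31.8% and 40.9%, also near all genes, and in NICD2 31.8% and 18.2%. TCEA2, which restarts arrested polymerase II, went from a mean of 6.7 CPM in EV to 40.7, 23.1, 30.1 and 53.2, log2 changes of 2.58, 1.77, 2.15 and 2.97, and SUPT5H, a subunit of the pausing factor DSIF, rose by 1.12, 0.79, 0.71 and 1.66. Of 10 genes for the assembly and import of polymerases, 5, 5, 5 and 4 were called higher and 4, 0, 3 and 4 lower. In NICD4 this was 40% each way, beside 37.4% and 43.6% of all genes. In NICD2 it was 50% and 0%, beside 29.6% and 29.9%. Among these genes, GPN2 rose by 1.21, 1.08 and 1.01 in NICD1, NICD3 and NICD4 and was not called in NICD2 (0.14). With the GC trend removed, TCEA2 changed by 1.99, 1.46, 1.68 and 2.16 in NICD1 to NICD4. SUPT5H then changed by 0.66, 0.55, 0.33 and 1.03, and GPN2 by 1.17, 0.10, 1.04 and 1.00. The members' counts stand beside these in the plot of list shares.

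**Figure D5:**
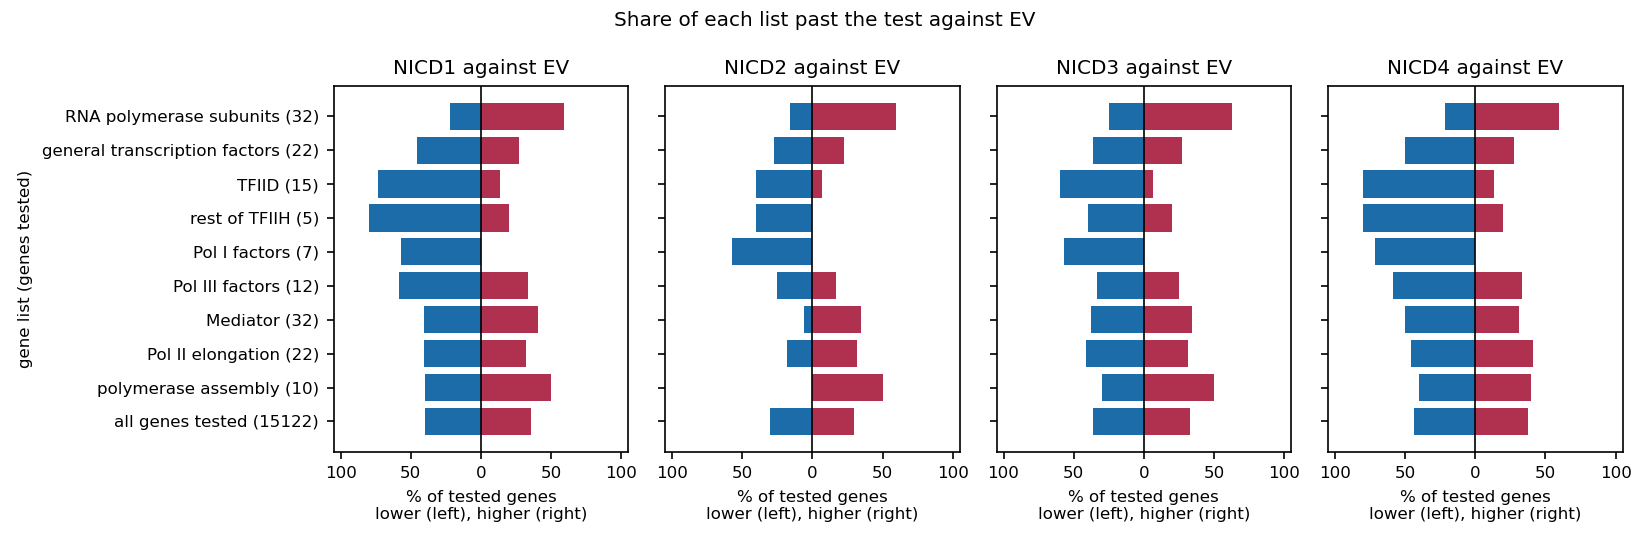
Share (percent) of the tested genes of each list called lower (blue, left) or higher (red, right) against EV, 1 panel per NICD group, with the number of genes tested in brackets. The polymerase subunits lean to the right in all 4 panels, with 19 or 20 of 32 called higher, while TFIID and the polymerase I factors lean to the left.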

How the data were processed

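The submitters deposited 1 table with log2 values per gene and library. Raising 2 to each deposited log2 value and subtracting 1 gave a whole number in 100% of cases (within 0.001), so the values are log2 of the read count plus 1. Per the submitters' processing notes, TopHat2 2.0.6 and HTSeq were used with GRCh37, and their settings are not given in the sources used here. Per the labels' protocols, libraries were made with the TruSeq RNA v2 kit with 16 cycles of PCR, and the strand is not stated. Positions of genes are those the table gives, on GRCh37. Symbols came from GENCODE 29 and the reference gene table (29524 genes).

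A gene was kept (15122 were) if it reached 0.548 CPM, which is 10 reads in a library of median size, in 3 libraries, and 15 reads overall. Because the deposited unit is a log2 value, log2 of TMM-scaled counts plus 1 read (0.0544 CPM) was tested with limma 3.58.1 (trend, robust, statmod 1.5.0; R 4.3.3) on all 15 libraries with 1 mean per group, two-sided, and p-values were adjusted by Benjamini-Hochberg over all genes in each comparison. The fit was tested on simulated data. GC content and length are those of the longest GENCODE 29 transcript (retained introns last), and exon overlap and kilobases come from that annotation, on GRCh38, with no coordinate moved between builds. All 15 value columns matched samples.

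Of the tested members, 1 is counted in the totals and not reported singly here. The members and all lists were chosen with earlier results of these data known. Values per library are given for up to 3 members per complex with the largest change, the large subunits, paralogs and the 5 smallest F-test p, and up to 3 genes per other list. Alternatives were other scalings, filters, pseudocount, voom, GC and length trends removed, 2-group fits, the replicate block and leaving out each library. Fold changes are on the log2(count + 1) scale and understate changes of low genes.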

Additional observations from a re-analysis of the deposited data

Results flagged for a closer look

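GTF2F2, the small subunit of TFIIF, had opposite changes against EV in groups labelled for different receptors, and the difference itself was tested. Its level exceeded that in NICD1 by 0.92 in NICD2, by 0.84 in NICD3 and by 1.07 in NICD4 on the log2 scale (limma adjusted p = 3.1e-05, 0.00015 and 9.5e-06), and the 9 libraries of those groups all lay above the 3 of NICD1. The opposite directions against EV depend on the processing. With the GC trend removed the change was 0.07 in NICD1 (limma adjusted p = 0.69) and 0.68, 0.80 and 1.35 in NICD2, NICD3 and NICD4, and with library totals it was −0.13 in NICD3 and −0.03 in NICD4.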

How the results depend on the processing

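Limits: the directions are relative to a scaling that moved the median of all genes, 3 libraries per group limit precision, and GTF2H2C, GTF2H2, GTF2H4 and GTF2IRD2 rest on few reads in some libraries. With library totals, 11 members were called higher and 28 lower in NICD1, 17 and 22 in NICD2, 12 and 30 in NICD3, and 13 and 29 in NICD4. At this scale these changes turned: GTF2E2 −0.18 (NICD1), GTF2F2 −0.13 (NICD3) and −0.03 (NICD4), GTF3C1 −0.02 (NICD1), GTF3C5 −0.26, −0.17 and −0.12 (NICD1, NICD3, NICD4), POLR1A −0.09, −0.03, −0.20 and −0.05, POLR1C −0.09 (NICD4), POLR1D −0.05 and −0.31 (NICD1, NICD4), POLR1F −0.09, −0.06 and −0.19 (NICD1, NICD3, NICD4), POLR2G −0.03 and −0.13 (NICD1, NICD4), POLR3A −0.03 and −0.19 (NICD1, NICD3) and POLR3F −0.24 (NICD4). With the GC trend removed, 19 turned, with the same values under a replicate block: GTF2A1 0.04 and 0.19 (NICD1, NICD3), GTF2F2 0.07 (NICD1), GTF2H1 0.31, 0.04 and 0.40 and GTF3C5 −0.31, −0.16 and −0.27 (NICD1, NICD3, NICD4), POLR2K 0.02, 0.08, 0.19 and 0.10, POLR2M 0.33 and 0.35 (NICD1, NICD4), POLR3B 0.07 (NICD3) and POLR3G 0.36, 0.22 and 0.53 (NICD1, NICD3, NICD4). With the length trend removed, GTF2E2 gave −0.04 (NICD1), GTF3C2 0.00 (NICD4), GTF3C6 −0.04 and −0.03 (NICD1, NICD3), POLR2D 0.00, POLR3B 0.01 and POLR3GL −0.07 (NICD3). No direction turned with voom, median-of-ratios scaling, a pseudocount of 5 reads, a filter at 50 reads, no filter, the compared groups only, or the replicate block alone. NICD3 against NICD1 had 4 members called with the GC trend removed, with or without the block, and 2 with the length trend removed. NICD4 against NICD1 had 5 without a filter and 1 with the compared groups only, and NICD3 against NICD2 had 2 without a filter. The cause was not tested, and the shares of all genes called under these alternatives are not given here. Leaving out 1 library gave 23 to 25, 21 to 25, 22 to 26 and 23 to 26 members called higher against EV and 16 to 19, 6 to 12, 13 to 18 and 18 to 19 lower, 8 to 19 for NICD2 against NICD1, 1 to 4 for NICD3 against NICD1, 3 to 20 for NICD4 against NICD1, 0 to 7 for NICD3 against NICD2, 30 to 38 for NICD4 against NICD2, 12 to 33 for NICD4 against NICD3 and 27 to 40 for the F-test. Replicate numbers did not pair the libraries: deviations of same-numbered libraries correlated at −0.429 to 0.363 over 30 pairs, and a replicate block changed 4 of 212 single calls.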
